A study of Mus musculus with 6 samples.

Results

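The genes described here are 35 nuclear genes for subunits of respiratory complexes II, III, IV and V and for cytochrome c. They were taken by symbol from a table of 26728 mouse entries, by a rule that leaves out pairs of tissue isoforms: 4 of complex II, 9 of complex III, 1 for cytochrome c, 6 of complex IV and 15 of complex V (ATP synthase). Some of them, such as Cox6a1 and Cycs, nevertheless have a tissue-restricted counterpart (Cox6a2 and Cyct). All 35 had values and passed the filter on low values. RNA came from untreated adult C57/BL6 mice (Charles River) and was compared between the carotid body, the organ beside the carotid artery that senses blood oxygen, and the adrenal medulla, the inner part of the adrenal gland, which releases adrenaline and noradrenaline. Each tissue had 3 libraries, and each library is a pool of tissue from 10 mice, holding 18 carotid bodies or 10 adrenal medullas. The sex of the mice is not given in the labels. Nothing in them says whether pools of the same tissue were prepared independently, so p-values measure only the spread between these pools.

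Complex II (succinate dehydrogenase) passes electrons from succinate to ubiquinone and is also an enzyme of the TCA cycle. Complex III passes them on to cytochrome c, complex IV passes them from cytochrome c to oxygen, and complex V makes ATP from the proton gradient that complexes III and IV help to build. Complexes III, IV and V also contain subunits encoded in mitochondrial DNA, which are not among these genes, whereas every subunit of complex II is nuclear. Oxygen use by mitochondria has long been studied in the carotid body as a possible part of its oxygen sensing.

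Levels are RPKM, read numbers corrected for mRNA length and for library depth. Ranks between genes are ranks of RPKM, and whether the length correction suits amplified RNA was not tested. Differences are carotid body minus adrenal medulla on the log2(RPKM + 1) scale, where a value below 0 means a higher mean in the adrenal medulla. A gene was called where limma gave a Benjamini-Hochberg adjusted p under 0.05 over all 13357 genes tested. Libraries held 13266225 to 16445925 reads. No subunit gene had fewer than 1219 reads in any library, a counting error of 2.86%. That is well below the spread between pools, so depth did not limit these comparisons. It covers counting error only, since amplified reads carry no molecular identifiers.

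The libraries are of whole tissue. Of 10 adrenal cortex markers, 10 were called higher in the adrenal medulla, with summed levels of 11366 to 15980 RPKM there and 30.9 to 135 in the carotid body. Markers of smooth muscle and pericytes (7 of 8), fibroblasts (6 of 6), glia (7 of 7), endothelium (5 of 8) and macrophages (2 of 5) were called higher in the carotid body. Of 8 chromaffin and glomus cell markers, 6 were called higher in the adrenal medulla and 1, Ddc, in the carotid body. Th, the rate-limiting enzyme of catecholamine synthesis, was at 551, 434 and 646 RPKM in the carotid body and at 887, 2489 and 2002 RPKM in the adrenal medulla. By fat markers, carotid body pool 2 and adrenal medulla pool 3 stood apart from the other pools of their tissues. Summed fat markers reached 3323 and 2366 RPKM in them, against 236 to 931 RPKM in the other libraries. In adrenal medulla pool 3 a single gene, Cfd at 1641 RPKM, made up most of that sum. Adrenal medulla pool 3 also lacked Eif2s3y, a Y-linked gene that the other libraries had at 12.1 to 31.7 RPKM. The main results are given with and without these pools. In whole tissue, fewer cells of a type and less RNA per cell cannot be told apart.

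None of the 35 genes was called, against 21.9% of all genes tested, of which 7.73% were higher in the adrenal medulla. None had an unadjusted p under 0.05 in limma either, the smallest adjusted p was 0.197, and limma voom on recovered reads also called none. Differences ran from -0.79 for Sdhb to 0.30 for Atp5o, with a median of -0.17 against 0.02 over all genes tested. They were below 0 for 29 genes and above 0 for 6, where 48.3% of all genes tested lay below 0. The 95% interval lay within -1 to 1, so within a 2-fold change either way, for 16 of the 35 genes and for 50.1% of all genes tested. For the other 19, the data leave room for a difference of 2-fold or more in at least one direction. The pools of the tissues overlapped for 34 of the 35 genes. For 1, Cox6c, all adrenal medulla pools lay above all carotid body pools. Over all genes tested, 37.0% did not overlap, 22.3% with the carotid body above and 14.7% with the adrenal medulla above.

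**Figure D1:**
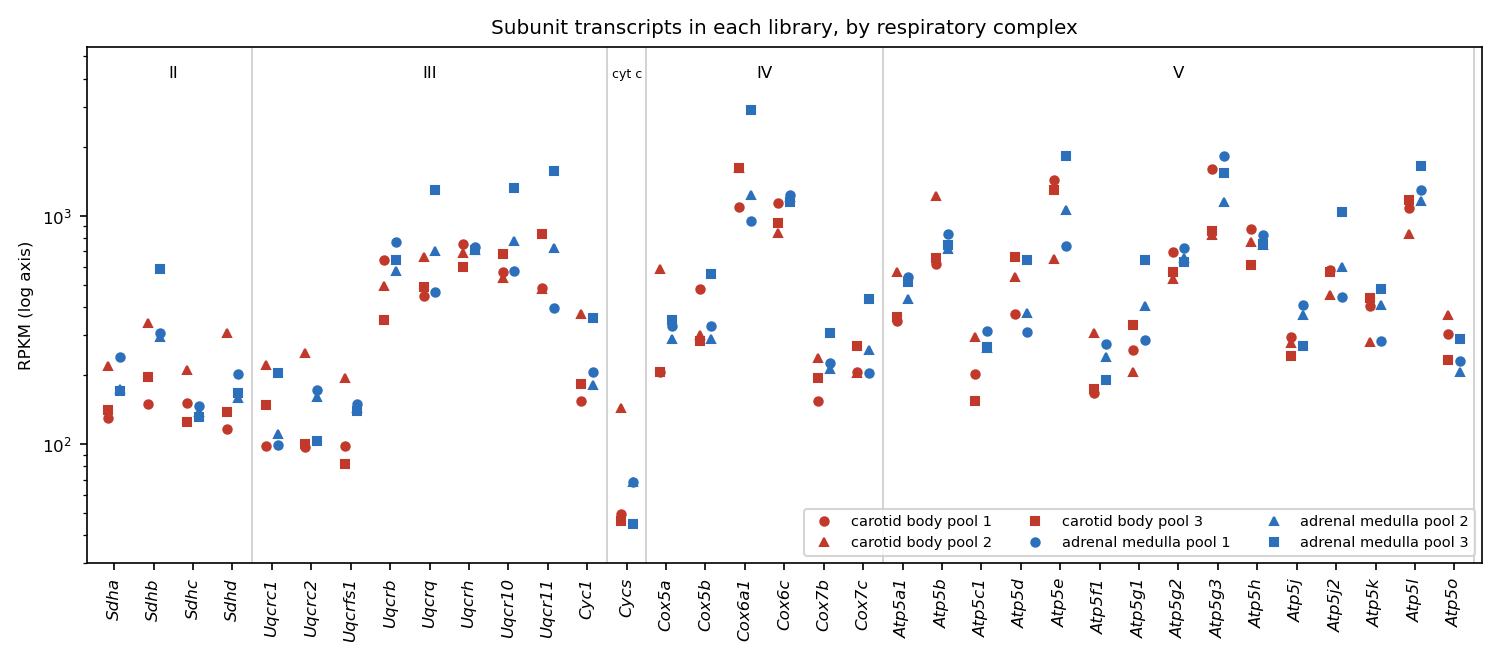
Levels of the 35 subunit genes, grouped by complex, in RPKM on a log axis, with 1 point per pool. Points of the 2 tissues intermingle for every gene except Cox6c, whose adrenal medulla pools (1147 to 1238) all lie above its carotid body pools (846 to 1141).

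Transcripts of these genes were abundant in RPKM. The median subunit gene ranked within the top 1.94% of tested genes by mean level. Together the 35 genes took 1.23%, 1.55% and 1.21% of the reads in carotid body pools 1, 2 and 3, and 1.44%, 1.35% and 1.79% in adrenal medulla pools 1, 2 and 3. The highest share of each tissue was in the pool that stood apart, and the ranges overlapped. Summed over each complex, the mean level in the carotid body was 0.820 times that of the adrenal medulla for complex II, 0.763 times for complex III, 0.847 times for complex IV and 0.868 times for complex V. For all 35 genes the ratio was 0.838. Without adrenal medulla pool 3 the ratios were 0.892, 0.931, 1.04 and 0.946, and 0.959 for all 35, so the direction for complex IV turned. Per complex, the pools of the tissues overlapped in each of these sums. Summed over all 35 genes they did not, at 15949 to 17022 RPKM in the carotid body and 17142 to 24652 RPKM in the adrenal medulla. The gap between the closest pools was small beside the spread within each tissue. The median level over the 35 genes overlapped, at 333 to 373 RPKM in the carotid body and 330 to 558 RPKM in the adrenal medulla.

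Complex II has 4 subunits. Sdha carries the flavin and the succinate site, Sdhb holds the iron-sulphur clusters, and Sdhc and Sdhd anchor the enzyme in the membrane. Mutations of human SDH genes, SDHD and SDHB among them, are known as causes of paraganglioma, a tumour that can arise in the carotid body and the adrenal medulla. Of the 4, 3 lay below 0, and the median difference was -0.16. Sdhb, with the largest difference of all 35, was at 150, 339 and 198 RPKM in carotid body pools 1, 2 and 3 and at 307, 295 and 583 RPKM in adrenal medulla pools 1, 2 and 3. Carotid body pool 2 exceeded the lower pair of adrenal medulla pools, and pool 3 of the adrenal medulla was the highest of all. The means were 229 ± 98.1 and 395 ± 163 RPKM (SD, n = 3 pools each). The log2 difference was -0.79, with a 95% interval of -1.67 to 0.08 (limma adjusted p = 0.197).

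Sdha was at 131, 220 and 141 RPKM in the carotid body and at 241, 175 and 171 RPKM in the adrenal medulla, a difference of -0.28 (adjusted p = 0.574, limma). Sdhd was at 117, 308 and 138 RPKM against 202, 159 and 167 RPKM, and Sdhc at 151, 210 and 125 RPKM against 147, 138 and 132 RPKM. In both genes carotid body pool 2 was the highest of the 6 libraries. The remaining carotid body pools lay below all adrenal medulla pools for Sdhd and on both sides of them for Sdhc. Their differences were -0.04 (95% interval -0.87 to 0.80) and 0.19 (-0.38 to 0.76). Without carotid body pool 2 the difference became -0.46 for Sdhd (adjusted p = 0.299), -0.51 for Sdha (0.278) and -1.12 for Sdhb (0.0818), and limma called none of the 3. Without adrenal medulla pool 3 the difference of Sdhb became -0.48 (0.350).

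Complex III had a median of -0.31, with 8 of 9 genes below 0. Without adrenal medulla pool 3 these were -0.13 and 6 of 9, and without carotid body pool 3 -0.06 and 5 of 9. Only 2 of the 9 intervals lay within -1 to 1. Its small accessory subunits were the most abundant. Uqcr11 led at 484, 480 and 831 RPKM in the carotid body and 397, 721 and 1580 RPKM in the adrenal medulla, a spread of 3.98-fold within the adrenal medulla alone. Uqcrq, at 448, 658 and 486 RPKM against 465, 703 and 1300 RPKM, differed by -0.52 (limma adjusted p = 0.418). Uqcr10, at 568, 535 and 682 RPKM against 577, 780 and 1323 RPKM, differed by -0.51 (0.363). In these 3 genes adrenal medulla pool 3 was the highest of the 6 libraries, and pool 1 of the adrenal medulla lay among the carotid body pools or below them. Without adrenal medulla pool 3 the differences were 0.11 for Uqcr11, -0.13 for Uqcrq and -0.18 for Uqcr10. Uqcrb, which helps to form the ubiquinone site, differed by -0.46, and Uqcrh, the hinge protein that contacts cytochrome c1, by -0.09.

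The larger subunits of complex III varied between pools in another way. Uqcrfs1, the Rieske iron-sulphur protein and the least abundant gene of the complex, was at 98.4, 195 and 82.0 RPKM in the carotid body and at 150, 144 and 140 RPKM in the adrenal medulla. Its adrenal medulla pools were nearly equal, and carotid body pool 2 lay above them while pools 1 and 3 lay below. The difference was -0.31 with all pools (adjusted p = 0.586) and -0.68 without carotid body pool 2 (limma adjusted p = 0.111). Cyc1, which encodes cytochrome c1, differed by -0.11, and the core proteins Uqcrc2 and Uqcrc1 by -0.08 and 0.18. For each of these 4 genes carotid body pool 2 was the highest carotid body pool.

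Cycs, the soluble carrier between complexes III and IV, was the least abundant of the 35. It was at 49.6, 144 and 46.0 RPKM in the carotid body and at 68.5, 67.9 and 44.7 RPKM in the adrenal medulla. Carotid body pool 2 was 3.14 times the lowest carotid body pool, while the other carotid body values lay within the adrenal medulla range. The difference of 0.22 (95% interval -0.76 to 1.21, limma adjusted p = 0.796) became -0.30 without that pool and -0.50 without adrenal medulla pool 3 as well.

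All 6 genes of complex IV lay below 0, with a median of -0.22, and 3 of the 6 intervals lay within -1 to 1. Without adrenal medulla pool 3 the median was -0.06 with 4 of 6 below 0, and without carotid body pool 2 as well it was -0.11 with 3 of 6. Cox6a1, the widely expressed form of subunit 6a, was the most abundant of the 35 at 1099, 1619 and 1617 RPKM in the carotid body and 954, 1236 and 2907 RPKM in the adrenal medulla. Its lowest and highest values both came from the adrenal medulla, and the difference was -0.08. Cox6c was at 1141, 846 and 930 RPKM against 1238, 1213 and 1147 RPKM. Although the pools did not overlap, the gap between the closest was small beside the spread of the carotid body pools, and the difference of -0.31 was not called (95% interval -0.90 to 0.27, limma adjusted p = 0.468).

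The largest differences within complex IV belonged to a pair of small subunits. Cox7b, the least abundant gene of the complex, was at 155, 238 and 195 RPKM in the carotid body and 226, 214 and 308 RPKM in the adrenal medulla, a difference of -0.35 (limma adjusted p = 0.425). Cox7c was at 206, 205 and 268 RPKM against 205, 258 and 434 RPKM, a difference of -0.34 (0.529). Each again had its highest value in adrenal medulla pool 3, without which the differences were -0.19 and -0.04. Cox5a and Cox5b, subunits that cap the enzyme on its matrix side, differed by -0.14 and -0.13. Cox5a stood at 588 RPKM in carotid body pool 2 against 207 RPKM in each of the other carotid body pools.

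Complex V consists of a catalytic head (F1), a stalk and a membrane part (Fo). Of its 15 genes, 12 lay below 0 with a median of -0.17, and 8 of 15 intervals lay within -1 to 1. In the head, the alpha and beta subunit genes Atp5a1 and Atp5b differed by -0.25 and 0.05, and the gamma, delta and epsilon genes Atp5c1, Atp5d and Atp5e by -0.41, 0.28 and -0.08. In the stalk, the genes of subunits b, d and F6, Atp5f1, Atp5h and Atp5j, differed by -0.17, -0.06 and -0.34. Atp5o (OSCP), which joins the stalk to the head, differed by 0.30. The membrane genes Atp5j2, Atp5k and Atp5l, for subunits f, e and g, differed by -0.30, -0.05 and -0.41. The least abundant gene, Atp5f1, was at 167, 306 and 174 RPKM in the carotid body and at 274, 242 and 192 RPKM in the adrenal medulla.

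Subunit c forms the ring that rotates in the membrane. Atp5g1, Atp5g2 and Atp5g3 encode the same mature protein behind different import sequences. Atp5g3, the most abundant gene of complex V, was at 1603, 822 and 861 RPKM in the carotid body and at 1831, 1155 and 1541 RPKM in the adrenal medulla. Carotid body pool 1 lay within the adrenal medulla range and the others below it (difference -0.51, limma adjusted p = 0.378). Atp5g1 was at 260, 208 and 333 RPKM against 286, 402 and 643 RPKM, and its difference of -0.68 (95% interval -1.46 to 0.10, adjusted p = 0.216) was the second largest of the 35 and became -0.37 without adrenal medulla pool 3. Atp5g2 was at 695, 530 and 567 RPKM against 721, 654 and 626 RPKM, a difference of -0.17. In both tissues the order of mean levels was Atp5g3, Atp5g2, Atp5g1, and for Atp5g3 over Atp5g2 and Atp5g2 over Atp5g1 it held in 6 and 5 of 6 libraries. Adrenal medulla pool 3, with 643 RPKM for Atp5g1 and 626 RPKM for Atp5g2, was the exception.

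**Figure D2:**
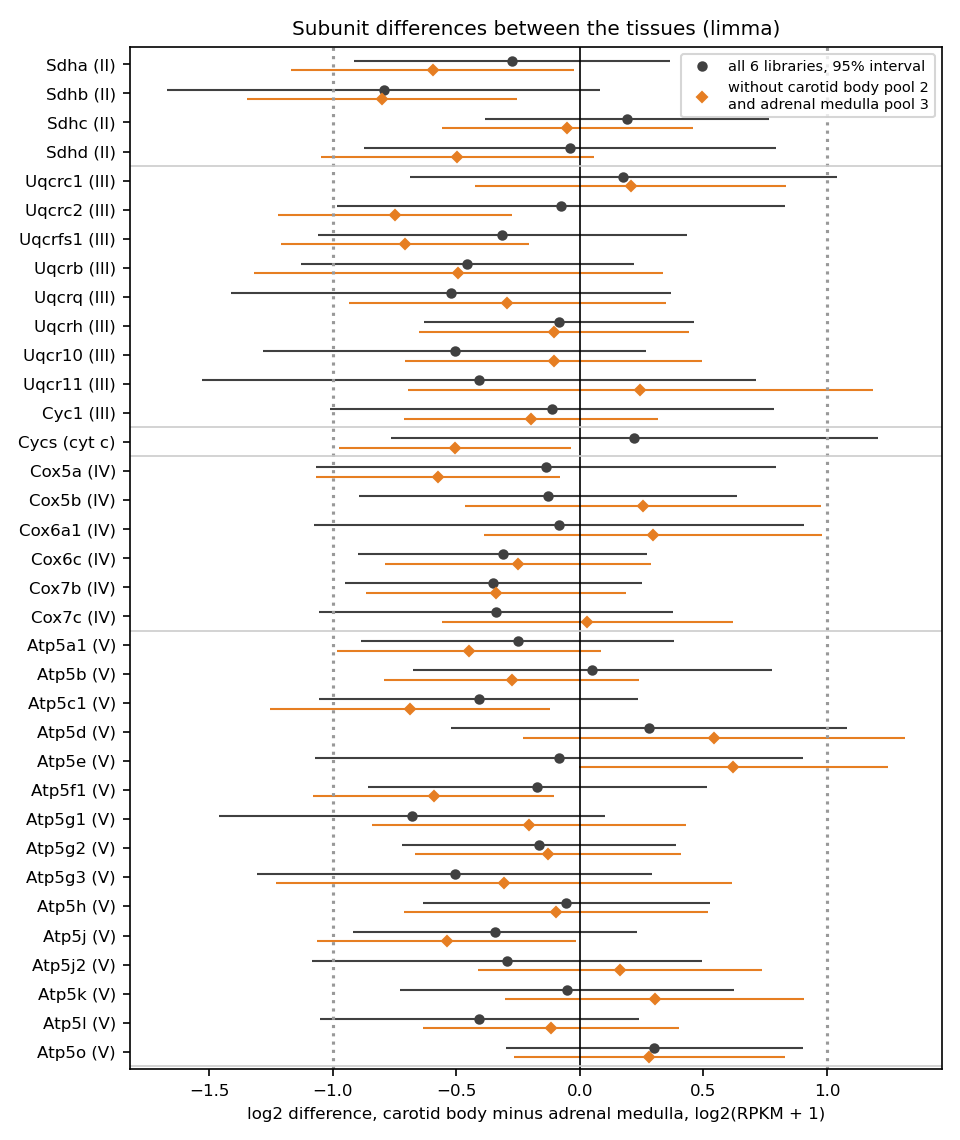
Log2 difference of each subunit gene, carotid body minus adrenal medulla on the log2(RPKM + 1) scale, with its 95% interval from limma. Intervals of all 35 genes include 0, and 29 of the 35 estimates lie below it.

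Some of these genes share sequence with other genes and pseudogenes, and how reads with several matches were handled is not given in the sources used here. In GENCODE M21 transcripts (GRCm38), at least 50% of the 32-base windows also occurred in transcripts of other genes for 7 of the 35: Atp5g2 (87.7%), Atp5l (85.4%), Atp5g1 (67.3%), Atp5o (62.5%), Atp5h (60.3%), Uqcrb (57.3%) and Cox7c (55.4%). The levels of these 7 are therefore uncertain. Sdha, Sdhb, Sdhd, Uqcrfs1, Uqcrq, Atp5d, Atp5e and Atp5g3 shared no window, and over the 35 genes the median share was 15.5%. Some transcripts searched differed in length from the listed mRNAs, among them Uqcrq (1521 bases against 0.511 kb) and Atp5g1 (596 bases against 0.805 kb). The shares describe the transcripts searched and may differ for the listed mRNAs.

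Within a tissue, the pools ordered these genes by mRNA length. The listed lengths of the 35 mRNAs run from 0.356 to 3.059 kb, with a median of 0.772 kb against 2.745 kb over all genes tested. Length classes were set after the values were seen. Carotid body pool 2 was the highest carotid body pool for 14 of 14 subunit genes of 1 kb and over, among them the 4 Sdh genes, Cycs, Atp5a1 and Atp5b. Among all tested genes of that length it was the highest for 47.3%. Under 0.6 kb it was the highest for 2 of 14 subunit genes (Uqcrq and Cox6a1) and the lowest for 8 of 14, where all tested genes under 0.6 kb gave 11.0% and 65.0%.

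Adrenal medulla pool 3 had the opposite trend. It was the highest adrenal medulla pool for 10 of 14 subunit genes under 0.6 kb and for 4 of 14 of 1 kb and over, against 58.8% and 29.1% of all tested genes in those classes. Adrenal medulla pool 2 was the highest adrenal medulla pool for 0 of the 35 genes and for 27.6% of all genes tested. Over the 35 genes, the log2 difference of carotid body pool 2 from the mean of pools 1 and 3 ran with length (Spearman's rho 0.774), as did, inversely, that of adrenal medulla pool 3 from pools 1 and 2 (-0.57). Over the 13357 genes tested the values were 0.219 and -0.35. These correlations are descriptions across genes that share 1 library, and RPKM itself contains the length. Between the tissues the correlation with length was 0.280 for the 35 genes and 0.0934 for all genes tested.

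**Figure D3:**
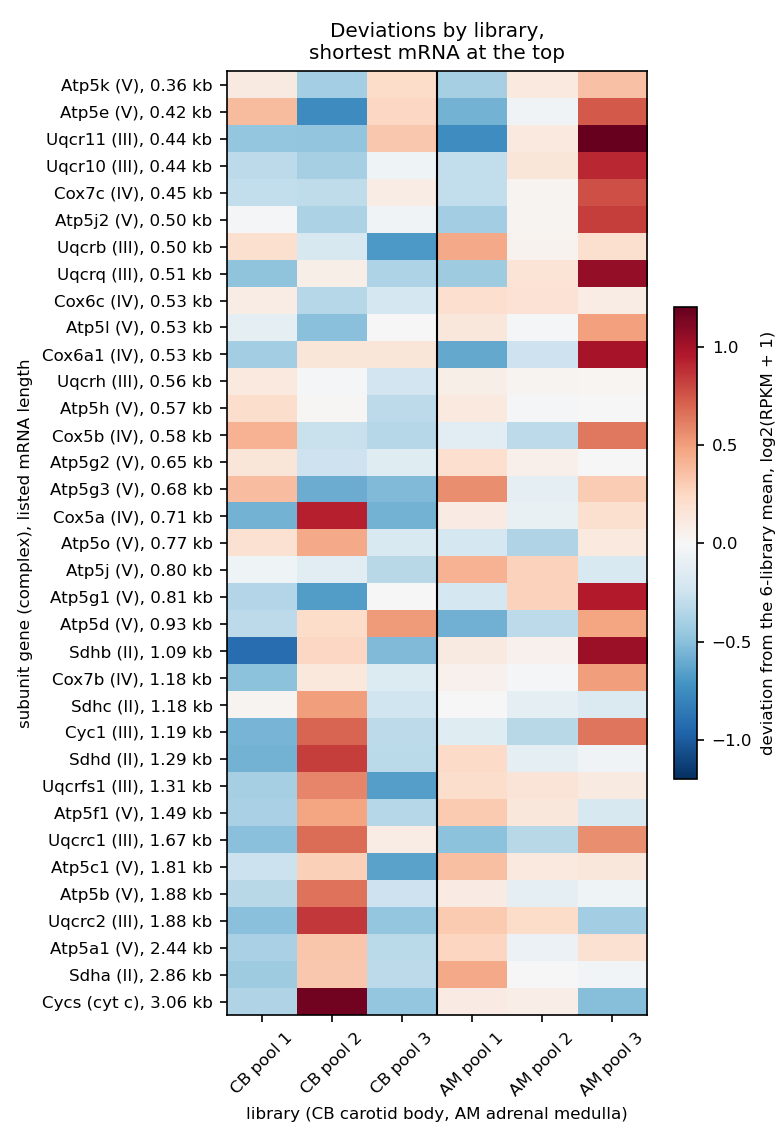
Deviation of each pool from the 6-library mean, in log2 units, for the individual subunit genes in order of mRNA length. Over subunit genes of 1 kb and over, the median deviation was 0.54 in carotid body pool 2. It was -0.41 and -0.32 in carotid body pools 1 and 3. Over subunit genes under 0.6 kb, the median was -0.32 in carotid body pool 2 and 0.68 in adrenal medulla pool 3.

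**Figure D4:**
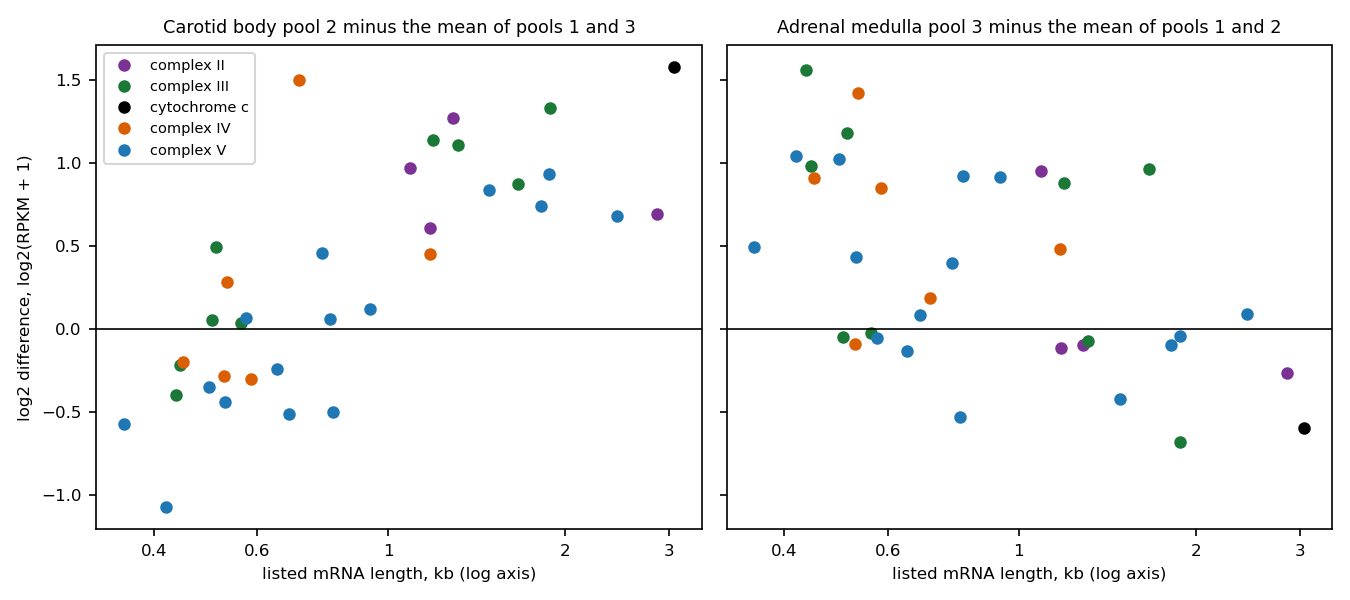
For each of the 35 subunit genes, the log2 difference of 1 pool from the other pools of its tissue against mRNA length in kb on a log axis. Carotid body pool 2 rises with length (rho 0.774) and adrenal medulla pool 3 declines (rho -0.57).

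Markers of brown fat, a tissue dense in mitochondria, moved with carotid body pool 2. Ucp1, the uncoupling protein that defines brown fat, was at 0, 221 and 2.23 RPKM in carotid body pools 1, 2 and 3 and at 0, 0.128 and 2.48 RPKM in the adrenal medulla pools. Cidea, a lipid droplet protein of brown fat, was at 276 RPKM in carotid body pool 2 and at 2.59 to 9.71 RPKM in the other libraries. The 8 brown fat markers summed to 349, 1158 and 1048 RPKM in the carotid body and to 333 to 492 RPKM in the adrenal medulla. A single gene, Cox8b, was at 334, 531 and 1021 RPKM in carotid body pools 1, 2 and 3 and at 311, 453 and 333 RPKM in the adrenal medulla pools. It made up most of the brown fat sum in every library except carotid body pool 2. Of 7 tested fat markers, 7 were highest in carotid body pool 2 and in adrenal medulla pool 3 within their tissues. Summed skeletal muscle markers were at 15.5 to 32.1 RPKM, most of it Acta1. Of 4 tested, 2 were called higher in the carotid body (14.2% of all genes tested), Tnnt3 (1.80) and Tnni2 (1.88). The part of these cells in the subunit values was not tested.

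Without carotid body pool 2, 31 of the 35 genes lay below 0, with a median of -0.30, where 53.3% of all genes tested lay below 0. By complex the medians were -0.49 for complex II (4 of 4 below 0), -0.48 for complex III (9 of 9), -0.25 for complex IV (6 of 6) and -0.26 for complex V (11 of 15). Still none was called, against 14.7% of all genes (6.69% higher in the adrenal medulla), and 4 had an unadjusted p under 0.05.

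Leaving out adrenal medulla pool 3 alone moved the values the other way. Then 22 of the 35 lay below 0, with a median of -0.09, where 50.7% of all genes tested lay below 0. None was called, against 24.2% of all genes (9.05% higher in the adrenal medulla), and 0 had an unadjusted p under 0.05. Without carotid body pool 1 or 3, 24 and 22 lay below 0, with medians of -0.19 and -0.18, and with length correction alone 23, with a median of -0.13. With carotid body pool 2 and adrenal medulla pool 3 both left out, 25 lay below 0, with a median of -0.21, against 54.3% of all genes.

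In that fit limma called 2 of the 35 higher in the adrenal medulla, against 13.1% of all genes tested (24.0% in either direction). They were Sdhb (-0.80, adjusted p = 0.0481) and Uqcrc2 (-0.75, adjusted p = 0.0391). Uqcrc2, a core protein of complex III, was at 97.5 and 101 RPKM in carotid body pools 1 and 3 and at 172 and 162 RPKM in adrenal medulla pools 1 and 2. It was at 251 RPKM in carotid body pool 2 and 104 RPKM in adrenal medulla pool 3, so its difference with all pools was -0.08 (0.932). The fit without both pools rests on 2 libraries a tissue. After each library's trend with mRNA length was removed and carotid body pool 2 left out, 29 of 35 lay below 0 (51.2% of all genes) and the median was -0.25. None was called in that fit, where 17.5% of all genes were called (7.63% higher in the adrenal medulla), and the smallest adjusted p was 0.0645, for Sdhb.

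Other genes of these complexes were also compared. Of 12 further subunits, 10 were tested and 0 called, with a median of -0.24, where 21.9% of all genes tested were called. Of these 10, 2 had an unadjusted p under 0.05 in limma, as did 4305 of the 13357 genes tested. Cox4i1, the widely expressed form of the largest nuclear subunit of complex IV, was at 1992, 1468 and 1328 RPKM in the carotid body and at 1273, 1038 and 1955 RPKM in the adrenal medulla (difference 0.20, limma adjusted p = 0.761). Of 27 tested assembly factors, which build the complexes, limma called 2, both higher in the adrenal medulla, with a median of -0.28 over the list, where 7.73% of all genes tested were called higher in the adrenal medulla. All adrenal medulla pools lay above all carotid body pools for 9 of the 27 (14.7% of all genes), and 7 had an unadjusted p under 0.05. Cox11, which delivers copper to complex IV, was at 4.70, 7.81 and 6.45 RPKM against 13.5, 14.5 and 10.1 RPKM (-0.91, adjusted p = 0.0305). Atpaf1, which assembles the F1 head, was at 6.92, 11.0 and 6.67 RPKM against 23.3, 20.3 and 11.8 RPKM (-1.06, adjusted p = 0.0382). With fewer libraries both lost their calls, without any 1 of carotid body pools 1 and 3 and adrenal medulla pools 1 and 2, at adjusted p of 0.0873 to 0.133 for Cox11 and 0.115 to 0.149 for Atpaf1. The differences in those fits were -0.94 to -0.74 and -0.97 to -0.88, and Atpaf1 was also not called with no filter on low values (0.0583).

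Of 15 TCA cycle and pyruvate dehydrogenase genes, 1 was called (7.73% of all genes in its direction), Suclg2, the GTP-forming subunit of succinyl-CoA ligase, which makes the succinate that complex II uses. It was higher in the adrenal medulla, at 38.7, 28.7 and 33.5 RPKM against 11.1, 15.1 and 12.0 RPKM (-1.33, limma adjusted p = 0.00276). The list's median was 0.02, and 15 of 15 had carotid body pool 2 as their highest carotid body pool, against 44.7% of all genes tested. Cs, citrate synthase, a common measure of mitochondrial content, was at 40.8, 146 and 36.1 RPKM in the carotid body and 63.9, 47.7 and 46.7 RPKM in the adrenal medulla. Its difference of 0.20 (adjusted p = 0.840) became -0.44 without carotid body pool 2.

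Of 18 genes of import, chaperones, channels and carriers of the mitochondrial membranes and matrix, 2 were called, both higher in the adrenal medulla (7.73% of all genes), and the list's median was -0.41. They encode the partner chaperones of the matrix. Hspd1 was at 31.8, 62.5 and 49.6 RPKM in the carotid body and 230, 226 and 212 RPKM in the adrenal medulla (-2.24, limma adjusted p = 5.53e-04). Hspe1 was at 150, 144 and 133 RPKM against 698, 541 and 815 RPKM (-2.24, adjusted p = 2.99e-04). Cortex transcripts were present in the same adrenal medulla libraries, at 11366 to 15980 RPKM over 10 markers, and the part of cortex cells was not tested.

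Of 13 tested regulators of mitochondrial genes, 2 were called, both higher in the carotid body (14.2% of all genes), and the median was -0.01. Ppargc1a, a coactivator of mitochondrial gene expression that is also abundant in brown fat, was at 3.70, 3.86 and 2.17 RPKM against 0.722, 0.410 and 0.234 RPKM (1.53, limma adjusted p = 0.00141). In the same carotid body pools Ucp1 was at 0, 221 and 2.23 RPKM, Cidea at 5.33, 276 and 9.71 RPKM and Cox8b at 334, 531 and 1021 RPKM. The part of brown fat cells in the Ppargc1a difference was not tested. Nrf1, a transcription factor of respiratory chain genes, was at 5.76, 7.88 and 6.66 RPKM against 3.55, 3.55 and 3.76 RPKM (0.74, adjusted p = 0.0309). Its call was lost without any 1 library other than adrenal medulla pool 3 (adjusted p 0.0531 to 0.124) and under quantile scaling (0.0521). Tfam, which maintains mitochondrial DNA, was at 9.17, 14.5 and 9.84 RPKM against 17.6, 14.8 and 11.0 RPKM (-0.35, adjusted p = 0.419).

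**Figure D5:**
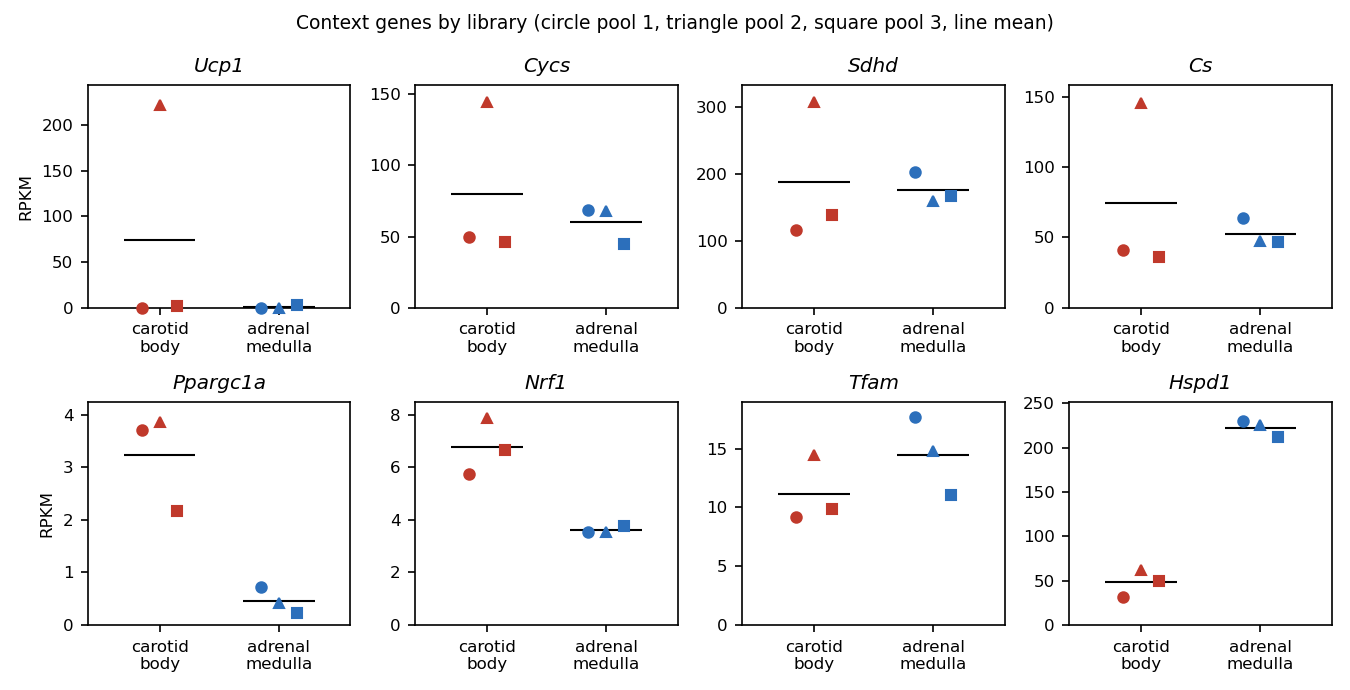
Levels in RPKM of the subunit genes Cycs and Sdhd and of genes named beside the subunits, with 1 point per pool. A line marks each tissue's mean. Ppargc1a and Nrf1 lie higher in all carotid body pools, Hspd1 lies higher in all adrenal medulla pools, and Ucp1 and Cs are high in carotid body pool 2.

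Promoters were searched for motifs known from respiratory chain genes, on both strands. RefSeq windows of 300 bases, from 250 before to 50 after each start (GRCm38.p6), were matched for 28 of the 35 genes. CGCATGC, the middle of the NRF1 motif, was found in 9 of 28 windows (32.1%) and in 4.01% of 27025 windows of all genes. The 9 were those of Sdhb, Uqcrc1, Uqcr11, Cycs, Cox6a1, Atp5g2, Atp5j, Atp5k and Atp5l. The ETS motif CCGGAAG, bound by GABP among others, was found in 10 of 28 (35.7%) and in 9.93% of all windows. AAGATGG, the core of the YY1 motif, was found in 4 of 28 (14.3%), those of Cox7c, Atp5f1, Atp5j and Atp5j2, and in 7.28% of all. None of these 3 motifs contains another, and a match is a description of the letters only.

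For 4 genes an NRF1 match between 40 and 65 bases before the start is shown. Among them are Sdhb and Cycs, which hold the largest difference and the lowest level of the subunit genes. Whether the level of Nrf1 bears on these genes was not tested. The motif is in capitals, on the strand of the gene, and reads GCATGCG where it matched the opposite strand. In Sdhb it begins 54 bases before the start, within chr4:140961192-140961251 (plus strand). In Cycs it begins 61 bases before, within chr6:50566596-50566655 (minus strand). In Atp5g2 it begins 41 bases before, within chr15:102671054-102671113 (minus strand), and in Atp5k 49 bases before, within chr5:108434414-108434473 (minus strand).
Sdhb: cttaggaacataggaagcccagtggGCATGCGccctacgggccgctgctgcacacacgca
Cycs: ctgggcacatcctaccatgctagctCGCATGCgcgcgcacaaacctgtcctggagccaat
Atp5g2: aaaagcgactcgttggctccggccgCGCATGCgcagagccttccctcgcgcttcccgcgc
Atp5k: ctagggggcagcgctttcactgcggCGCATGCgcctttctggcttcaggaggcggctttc

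The 9 genes with the NRF1 motif differed between the tissues by -0.79 to 0.22, with a median of -0.17, and the other 19 matched genes by -0.68 to 0.30, with a median of -0.17. The 10 genes with the ETS motif had a median of -0.08, against -0.22 for the 18 without it, and no test was made between such sets.

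Many subunit genes lie head to head with a neighbour. Within 1000 bases upstream of the start, a gene on the opposite strand starts for 10 of the 28 matched genes (35.7%) and for 12.3% of all 27025. Sdhd starts 52 bases from Timm8b, which encodes a chaperone of the import system, and Atp5j starts 148 bases from Gabpa, which encodes a subunit of GABP itself. Each of these intervals between starts holds an ETS motif, shown in capitals on the strand of the subunit gene, at chr9:50603861-50603920 (minus strand) for Sdhd, beginning 46 bases before the start, and at chr16:84835003-84835062 (minus strand) for Atp5j, 61 bases before.
Sdhd: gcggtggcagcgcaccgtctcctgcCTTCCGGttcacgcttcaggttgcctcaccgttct
Atp5j: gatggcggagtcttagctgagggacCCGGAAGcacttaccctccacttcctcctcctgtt

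Gabpa was at 5.29, 9.17 and 5.25 RPKM in the carotid body and at 5.43, 6.16 and 4.48 RPKM in the adrenal medulla (0.22, limma adjusted p = 0.635), with its highest value in carotid body pool 2. Atp5j was at 294, 278 and 242 RPKM against 409, 369 and 269 RPKM (-0.34, adjusted p = 0.408), and carotid body pool 2 was not its highest. Whether strand was kept in these libraries is not stated, so where transcripts of such neighbours overlap their reads cannot be told apart.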

How the data were processed

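The deposited table holds RPKM values that the authors made from Bowtie 0.9.8 alignments to mm9, per the submitters' processing notes. Per the labels' protocols, total RNA was amplified as aRNA and fragmented before Illumina library construction. RPKM multiplied by the listed mRNA length gave whole reads, within 0.01, for 106276 of 106276 values above 0. Together with the values of entries without a length, taken as reads, they sum to the depth of each library. The 3217 of 26728 entries without a length, with 5.85% to 8.27% of the reads, were left out of the fits.

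Log2(RPKM + 1) values of genes at 1 RPKM in at least 3 libraries were fitted with limma 3.58.1 (R 4.3.3), with variance trend and no block, two-sided, over 6 libraries (3 pools per tissue). The fit was tested on simulated data. Python 3.11.15, pandas 2.3.3, numpy 2.4.6 and matplotlib 3.10.9 handled tables and plots. The subunit genes and the other lists were chosen with earlier results of these data known. Values in every library were given for the 4 Sdh genes, Cycs, the 3 Atp5g genes and, per complex, the 2 largest differences and the highest and lowest level. From each other list up to 4 called genes were named, with Cs, Tfam, Ppargc1a, Cox4i1 and Ucp1. The remaining genes with values by pool, among them Uqcrc2, Cox6c, Cox5a, Gabpa and Atp5j, were chosen after their values were seen, as were the promoter motifs. Longer forms of the NRF1 and YY1 motifs were searched first and are not reported. Subunit genes matched GENCODE M21 transcripts by accession, 35 of 35, and the RefSeq table by accession, 34 of them under the same symbol.

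Pools carry numbers in their titles. Deviations from the tissue mean of same-numbered pools correlated at 0.259, 0.128 and 0.473 for pools 1, 2 and 3, all over the 0.1 taken as a sign of pairing. The reported fit has no block, and a fit with the number as a block was an alternative. Carotid body pool 2 correlated more with adrenal medulla pool 1 (0.291). Pool 3 of the carotid body had Y-linked reads and pool 3 of the adrenal medulla lacked them, so that pair did not come from the same mice alone.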

Additional observations from a re-analysis of the deposited data

How the results depend on the processing

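The 35 subunit genes gave 560 values under the alternatives: 503 kept their direction and their side of the threshold, 2 became called and 55 changed direction, in 17 genes whose difference with all pools was at most 0.41 in size. With the replicate block, limma called 2257 genes toward the carotid body and 1356 toward the adrenal medulla, and 0 of the 35 subunit genes (smallest limma adjusted p = 0.0993, 1 with an unadjusted p under 0.05). The pairing changed no call of a subunit gene. Calls over all genes were 1896 and 1033, or 64.7% to the carotid body, against 60.1% under median-ratio and 55.0% under quantile scaling. Leaving out 1 pool gave 926 to 1976 and 464 to 1178. Without both carotid body pool 2 and pool 3 of the adrenal medulla they were 1337 and 1603, or 45.5% to the carotid body, and 2 subunit genes were called. With carotid body pool 2 left out after length correction they were 1251 and 970. These 2 alternatives test fewer libraries; no other cause was tested.

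Without these 2 pools, Uqcrc2 was called at -0.75 and Sdhb at -0.80, and differences turned to -0.050 for Sdhc, 0.24 for Uqcr11, -0.50 for Cycs, 0.25 for Cox5b, 0.30 for Cox6a1, 0.030 for Cox7c, -0.28 for Atp5b, 0.62 for Atp5e, 0.16 for Atp5j2, 0.30 for Atp5k and -0.51 for Cs. With length correction they turned to 0.053 for Uqcrh, 0.0025 for Cox5b, 0.065 for Cox6a1, 0.11 for Atp5e, 0.079 for Atp5h and 0.16 for Atp5k. With carotid body pool 2 left out as well, they turned to -0.061 for Uqcrc1, -0.25 for Cycs, 0.027 for Cox5b, -0.21 for Atp5b, 0.32 for Atp5e, 0.18 for Atp5k and -0.37 for Cs. Quantile scaling turned Sdhd to 0.050, Uqcrh to 0.020 and Atp5h to 0.024, and median-ratio scaling Atp5b to -0.0020. Log2 ratios of summed levels moved for Cycs, from 0.41 to -0.51 without both pools and -0.34 to 0.68 without 1, and for complex V, to -0.043 without both pools and to -0.014 with the median in place of the sum. By less than the spread between pools, complex IV went from -0.24 to 0.057 without adrenal medulla pool 3 and 0.0015 without both, and with medians complexes II and IV were at -0.036 and -0.069. The cause was not tested.

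Leaving out 1 pool changed the direction of 16 subunit genes, with ranges of -0.012 to 0.36 for Sdhc, -0.46 to 0.23 for Sdhd, -0.12 to 0.50 for Uqcrc1, -0.52 to 0.16 for Uqcrc2, -0.17 to 0.0076 for Uqcrh, -0.88 to 0.11 for Uqcr11, -0.49 to 0.18 for Cyc1, -0.30 to 0.51 for Cycs, -0.64 to 0.11 for Cox5a, -0.37 to 0.15 for Cox5b, -0.41 to 0.39 for Cox6a1, -0.26 to 0.23 for Atp5b, -0.39 to 0.27 for Atp5e, -0.17 to 0.085 for Atp5h, -0.58 to 0.045 for Atp5j2 and -0.26 to 0.14 for Atp5k. Without 1 pool, Cox7c stayed below 0, down to -0.57. Outside the subunit list, Cs ran from -0.44 to 0.56 and Cox4i1 from -0.0055 to 0.45. Length correction, alone or without carotid body pool 2, and voom were chosen after seeing the data. The planned edgeR and DESeq2 fits were not run, and voom stands in for a fit on recovered reads. Depth did not limit the subunit genes.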
